A study of Rattus norvegicus with 6 samples.

Results

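The genes described here make ribosomes: they encode RNA polymerase I subunits, the small nucleolar ribonucleoproteins (snoRNPs) that modify ribosomal RNA, and the assembly factors that cut, fold and package it in the nucleolus. They were chosen by symbol, as 40 names of rRNA processing and RNA polymerase I genes, and 39 of them had a row among the 30498 genes of the deposited count table. Dkc1, the pseudouridine synthase of the box H/ACA snoRNPs, was the name with no row and is not analysed here. The list sets no threshold on counts, but it was drawn up with earlier results of the comparison below known. The differences and calls given for its members are therefore a description of these libraries, and no inference rests on them.

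RNA was sequenced from rat mesenchymal stem cells (MSC), stromal cells that can form bone, cartilage and fat, of wild-type genotype throughout. The 3 libraries named rcMSC came from cranial bone marrow, and the 3 named rbMSC from femur and tibia marrow. No treatment, passage, animal age or time is given, and whether a group's 3 libraries are separate animals or cultures is not stated either. By its title the study grafts the cranial cells into injured spinal cord, and the sequencing compares rcMSC with rbMSC.

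In the nucleolus, RNA polymerase I transcribes a long precursor that holds the small-subunit RNA and most of the large-subunit RNA. Box C/D snoRNPs guide methylation of its riboses and box H/ACA snoRNPs guide conversion of uridine to pseudouridine. The small-subunit (SSU) processome then folds and cuts the part that becomes the small ribosomal subunit, and other factors build the large subunit before both are exported to the cytoplasm. Transcription of many of these genes is driven by MYC, and their output is known to follow cell growth.

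Total counts ran from 21340290 to 26928079 per library, and the 39 members took 0.182 to 0.193% of the counts in rbMSC and 0.225 to 0.237% in rcMSC. Each pair of rbMSC libraries, and rcMSC replicates 1 and 2, differed by 2.69 to 3.16 times counting noise (chi-square per degree of freedom over genes). The rcMSC replicate 3 library stood apart, at 42.8 and 42.0 times counting noise from the other rcMSC libraries, so calls of members that change without it are given both ways. Most calls of other genes are given from all 6 libraries alone. All 7 MSC markers checked were present in every library, with 5 lower and 2 higher in rcMSC. Of 16 macrophage markers tested, 11 were lower and 0 higher in rcMSC. Their summed level was 1197 to 1198 CPM (counts scaled to the TMM-adjusted library size) in the rbMSC libraries and 725 to 754 CPM in the rcMSC libraries, with Cd163 at 5 or fewer counts everywhere. In bulk RNA, fewer cells of a type and less RNA per cell cannot be told apart. Endothelial markers summed to 6.08 to 9.27 CPM in rbMSC and 10.3 to 12.5 CPM in rcMSC. Of 11 lymphoid, neutrophil and erythroid markers, 9 had a row in the count table. These 9 summed to at most 0.346 CPM in any library, with 4 at 0 counts throughout, among them Cd3d, Elane and S100a8.

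The members were, for the most part, modestly higher in rcMSC. Summed over the 39 genes, the level was 1907, 1817 and 1922 CPM in rbMSC replicates 1 to 3, and 2309, 2332 and 2350 CPM in rcMSC replicates 1 to 3. The groups did not overlap, and the ratio of their means was 1.24. All 39 members passed the low-count filter, and 37 had a positive log2 fold change of rcMSC over rbMSC. The median was 0.32, with a range from -0.34 to 0.78, beside a median of 0.02 over the 14836 genes tested. By edgeR's quasi-likelihood test at an adjusted p of 0.05, 25 members were higher, 1 was lower and 13 did not pass. Over all genes tested, 22.6% were higher and 23.2% were lower by the same rule, with all 6 libraries. Without rcMSC replicate 3, 29 members were higher and 2 lower. Calls over all genes rose in that fit too, from 3351 to 4512 higher and from 3445 to 4558 lower. In 28 members all 3 rcMSC libraries lay above all 3 rbMSC libraries, and in 1 member they all lay below, where 28.3% and 28.8% of all genes did so. The changes were small: Nop10, Ltv1 and Npm1 were the 3 members at 1.5-fold or more, a size that 12.5% of all genes tested reached.

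**Figure D1:**
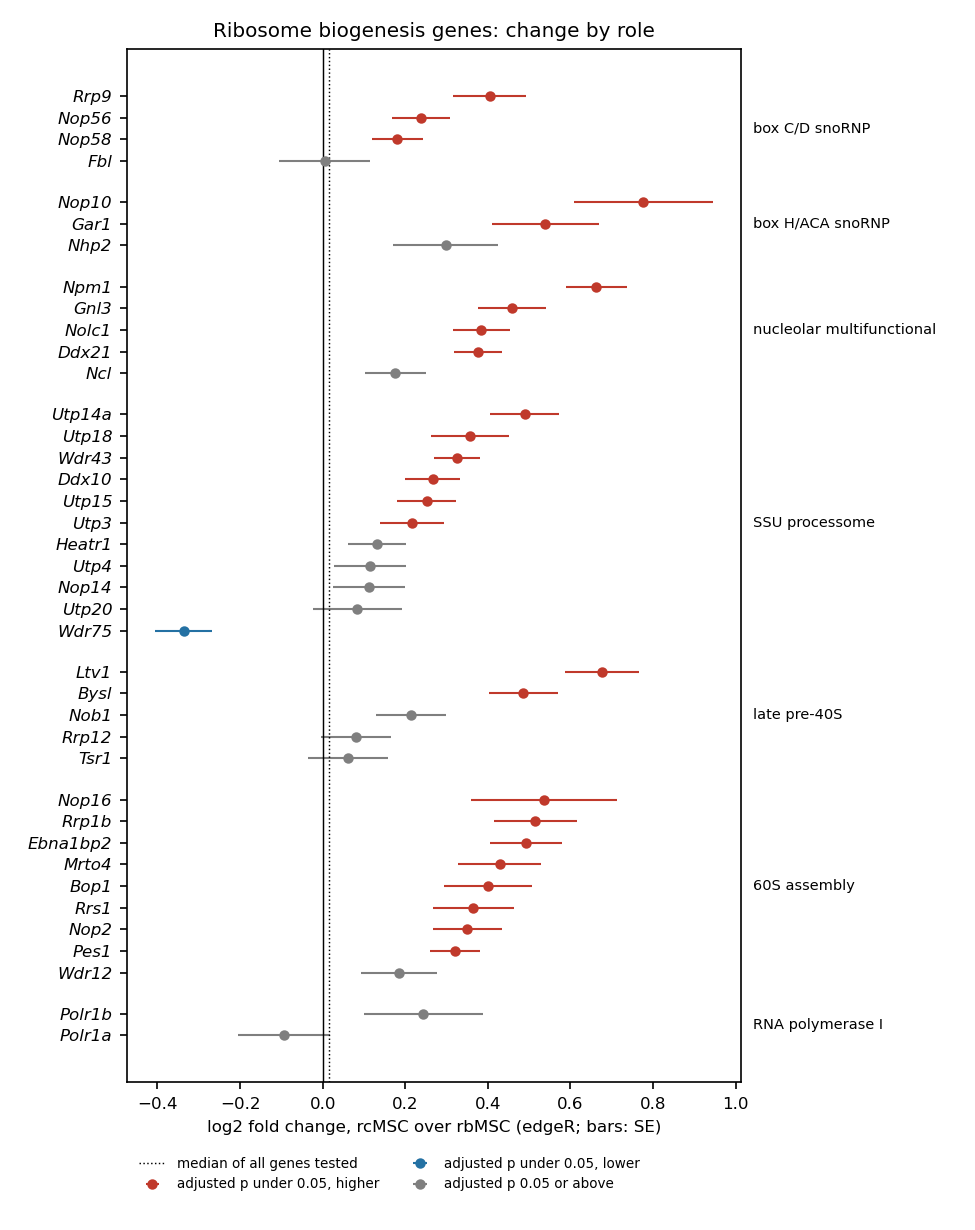
Log2 fold change of rcMSC over rbMSC for each of the 39 members, in blocks by role, from edgeR's quasi-likelihood fit, with bars of 1 SE (3 libraries a group). Red points were higher and the blue point, Wdr75, lower at an adjusted p of 0.05; grey points did not pass, and the dotted line is the median of all genes tested, 0.02.

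The starts of these genes had sequence features that the choice of names did not use. Promoters of 37 of the 40 names were found in RefSeq's GRCr8 annotation, as the 250 bases before the start of transcription and 50 after it. The E-box CACGTG, the letters that MYC and its partner MAX bind, was in 14 of the 37 (37.8%, exact binomial 95% interval 22.5 to 55.2%) and in 7.34% of 17545 protein-coding promoters of the same length. In the 250 bases before the start alone it was in 8 of the 37 (21.6%) and in 6.42% of all. The letters CCGGAAG, of ETS factors, were in 40.5% of the members' promoters and in 11.4% of all. The NRF1 motif was in 24.3% and 6.24%, and GGGCGG, of SP1, in 67.6% and 43.5%. The CCAAT box (CCAAT) was in 18.9% and 38.5%, the TATA box (TATAAA) in 5.41% and 13.3%, and AANATGGC, of YY1, in 8.11% and 8.24%. Both strands were searched, and the 17545 promoters were not limited to genes that passed the low-count filter. The members' promoters also had more CpG, with a median of 23 CG pairs against 12, and the part of this in the motif shares was not tested. Among the 36 members with both a promoter and counts, the median log2 fold change was 0.32 in the 13 with an E-box and 0.27 in the 23 without. Of those with an E-box 7 were higher and 1 lower, and of those without 15 were higher and 0 lower. A match describes the letters and not binding.

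The 250 bases before the start are shown for 6 members, 5′ to 3′ with E-boxes in capitals: 3 higher members with an E-box (Ltv1, Pes1 and Gnl3), the member with the highest level per gene length (Npm1), the member with the largest fold (Nop10), and the member that was lower (Wdr75). Their GRCr8 positions are Ltv1 at chr1:9398558-9398807 on the minus strand, Pes1 at chr14:83074096-83074345 on the plus strand, Gnl3 at chr16:6219783-6220032 on the minus strand, Npm1 at chr10:18255742-18255991 on the minus strand, Nop10 at chr3:119521005-119521254 on the plus strand, Wdr75 at chr9:55394982-55395231 on the plus strand.
Ltv1: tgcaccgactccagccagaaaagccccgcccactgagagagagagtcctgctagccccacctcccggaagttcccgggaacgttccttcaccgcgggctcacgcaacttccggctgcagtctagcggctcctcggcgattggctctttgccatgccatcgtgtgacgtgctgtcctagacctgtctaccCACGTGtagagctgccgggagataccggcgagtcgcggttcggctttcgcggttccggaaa
Pes1: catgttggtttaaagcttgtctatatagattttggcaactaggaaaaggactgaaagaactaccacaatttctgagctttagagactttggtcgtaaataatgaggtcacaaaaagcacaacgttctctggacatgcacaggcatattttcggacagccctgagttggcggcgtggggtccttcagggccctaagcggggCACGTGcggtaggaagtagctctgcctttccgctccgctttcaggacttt
Gnl3: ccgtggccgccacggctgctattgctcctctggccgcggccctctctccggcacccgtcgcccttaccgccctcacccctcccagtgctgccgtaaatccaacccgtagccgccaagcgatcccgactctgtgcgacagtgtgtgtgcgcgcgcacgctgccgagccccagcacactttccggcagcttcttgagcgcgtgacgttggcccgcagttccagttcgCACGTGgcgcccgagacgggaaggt
Npm1: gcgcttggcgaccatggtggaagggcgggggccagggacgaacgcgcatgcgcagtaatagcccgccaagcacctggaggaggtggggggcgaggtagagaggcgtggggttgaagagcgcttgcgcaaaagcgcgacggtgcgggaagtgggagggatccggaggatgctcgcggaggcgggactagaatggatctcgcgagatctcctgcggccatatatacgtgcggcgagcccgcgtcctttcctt
Nop10: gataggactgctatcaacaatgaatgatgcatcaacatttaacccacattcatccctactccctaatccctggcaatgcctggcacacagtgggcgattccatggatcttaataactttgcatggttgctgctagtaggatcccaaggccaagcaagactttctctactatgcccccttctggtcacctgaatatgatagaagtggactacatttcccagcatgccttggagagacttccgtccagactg
Wdr75: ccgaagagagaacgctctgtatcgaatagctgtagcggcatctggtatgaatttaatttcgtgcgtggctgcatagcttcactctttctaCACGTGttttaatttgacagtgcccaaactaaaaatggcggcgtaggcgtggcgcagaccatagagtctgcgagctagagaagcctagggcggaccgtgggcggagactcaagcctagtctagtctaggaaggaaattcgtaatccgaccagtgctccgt
Ltv1 has its E-box 61 bases before the start, Pes1 50 and Gnl3 25 bases before it. Wdr75, which was lower in rcMSC, has one 160 bases before its start. Npm1 and Nop10, with the highest level per length and the largest fold, have none in this window. Other names with an E-box in this window are not shown: Utp18, which was higher, Utp4 and Utp20, which did not pass, and Dkc1, which has no counts.

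Members differed widely in level. On a per-length scale (counts per kilobase of gene, scaled to the same total in every library, TPM), group means ran from 8.05 TPM for Polr1b in rbMSC to 468 TPM for Npm1 in rcMSC. Npm1 and Ncl, which encode the abundant nucleolar proteins nucleophosmin and nucleolin, led the order, which Ncl led by CPM. In rbMSC their levels overlapped, at 318 ± 15.9 TPM for Npm1 and 312 ± 22.1 TPM for Ncl (SD, n = 3). In rcMSC Npm1 stood above Ncl in every library, at 468 ± 37.8 TPM against 328 ± 27.3 TPM. Pes1 came next, at 154 ± 3.08 TPM in rbMSC and 178 ± 9.12 TPM in rcMSC, then Gnl3, Ddx21, Wdr43 and Nolc1 at group means of 71.0 to 123 TPM. Below these, neighbours in the order mostly overlapped between libraries.

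**Figure D2:**
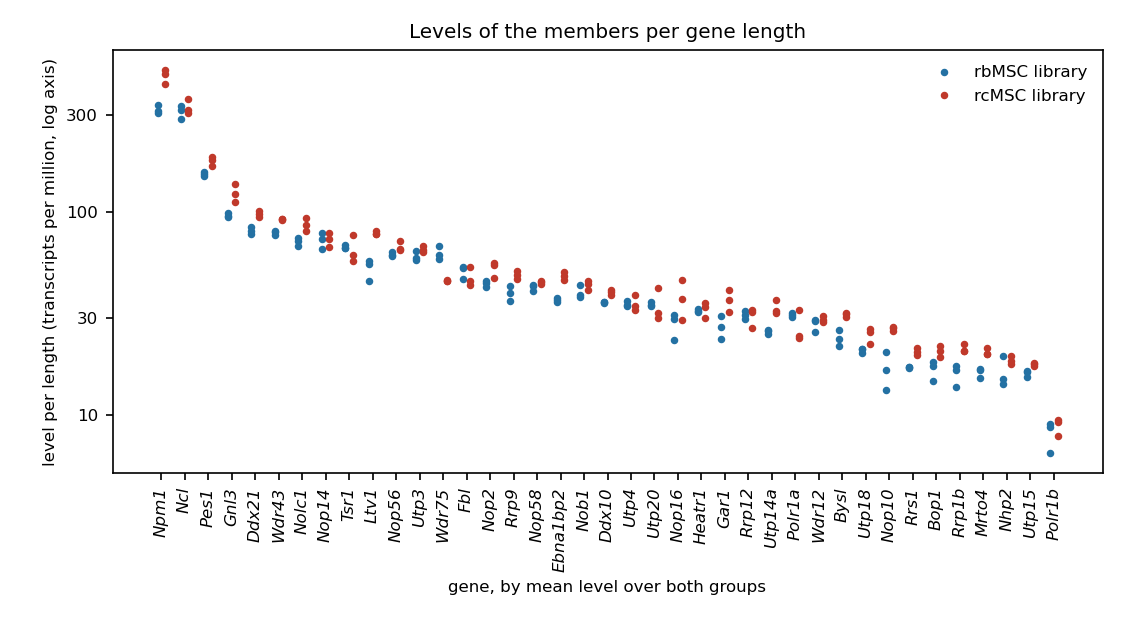
Level per gene length (TPM, log axis) of each member in each of the 3 rbMSC (blue) and 3 rcMSC (red) libraries, ordered by the mean over both groups. Npm1 and Ncl lie at 287 TPM or above in every library and Polr1b lies below 10 TPM in every library.

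The mRNAs of box C/D snoRNP proteins were slightly higher in rcMSC, except for that of their enzyme. Rrp9 (ENSRNOG00000012927, mRatBN7.2 chromosome 8, 107117471 to 107126123) binds the U3 snoRNA that the SSU processome needs. It was at 17.8, 16.6 and 15.3 CPM in rbMSC and 20.9, 22.2 and 22.8 CPM in rcMSC, a log2 fold change of 0.40 (SE 0.09). The rcMSC libraries were all higher. The genes of the core proteins, Nop56, with 31.3 ± 0.662 CPM in rbMSC and 36.9 ± 1.77 CPM in rcMSC, and Nop58, with 54.5 ± 2.21 and 61.8 ± 1.67 CPM, had log2 fold changes of 0.24 and 0.18 (SE 0.07 and 0.06). Their calls held in 14 and 9 of 17 fits. Fbl, fibrillarin, the methyltransferase of the same particle, was at 16.7, 17.0 and 14.9 CPM in rbMSC and 14.7, 18.5 and 15.5 CPM in rcMSC. Its groups overlapped and its log2 fold change was 0.00 (SE 0.11).

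The mRNAs of the box H/ACA proteins had a median log2 fold change of 0.54. Nop10 (ENSRNOG00000005184, chromosome 3, 99066857 to 99067942), a small core protein of the particle, was at 4.63, 3.81 and 3.05 CPM in rbMSC and 6.59, 6.74 and 6.28 CPM in rcMSC. Every rcMSC library was higher, and the log2 fold change of 0.78 (SE 0.17) was the highest of the members. With the trend of fold change on gene length removed it was 0.51. Gar1 was at 9.87, 8.78 and 7.76 CPM in rbMSC and 12.8, 11.3 and 14.2 CPM in rcMSC, a log2 fold change of 0.54 (SE 0.13). It no longer passed with the length trend removed, at 0.37. Nhp2, which binds the RNA with Nop10 and Dkc1, was at 13.8, 10.1 and 10.8 CPM in rbMSC and 14.02, 15.1 and 13.4 CPM in rcMSC. These overlapped, with a log2 fold change of 0.30 (SE 0.13) that did not pass. It passed without rcMSC replicate 3, at 0.34, and without rbMSC replicate 1, at 0.44.

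Among genes of nucleolar proteins with several functions, Npm1 differed most. Npm1 (ENSRNOG00000004616, chromosome 10, 17739941 to 17751645), a chaperone of histones and ribosomal proteins, was at 273, 268 and 297 CPM in rbMSC and 473, 454 and 400 CPM in rcMSC. The rcMSC libraries were all above, with replicate 3 the lowest of them, and the log2 fold change was 0.66 (SE 0.07). Ncl (ENSRNOG00000018273, chromosome 9, 86998019 to 87008136), which binds ribosomal RNA as it is made, was at 367, 320 and 356 CPM in rbMSC and 368, 384 and 426 CPM in rcMSC. The groups touched without overlapping, and its log2 fold change of 0.18 (SE 0.07) did not pass. It passed without rcMSC replicate 3, at 0.11, and with the length trend removed, at 0.24. Within libraries, the ratio of Npm1 to Ncl per length was 0.944, 1.06 and 1.06 in rbMSC and averaged 1.44 ± 0.226 in rcMSC, where replicate 3 was lowest at 1.19, a measure that no library scaling changes. This pair holds the highest and the lowest change of the block, so its ratio restates those changes. Gnl3 (nucleostemin), a GTPase of large-subunit assembly, had 47.1 ± 1.21 CPM in rbMSC and 64.7 ± 7.22 CPM in rcMSC, a log2 fold change of 0.46 (SE 0.08). Nolc1, a chaperone of snoRNPs, and Ddx21, an RNA helicase, were higher by 0.38 each (SE 0.07 and 0.06).

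**Figure D3:**
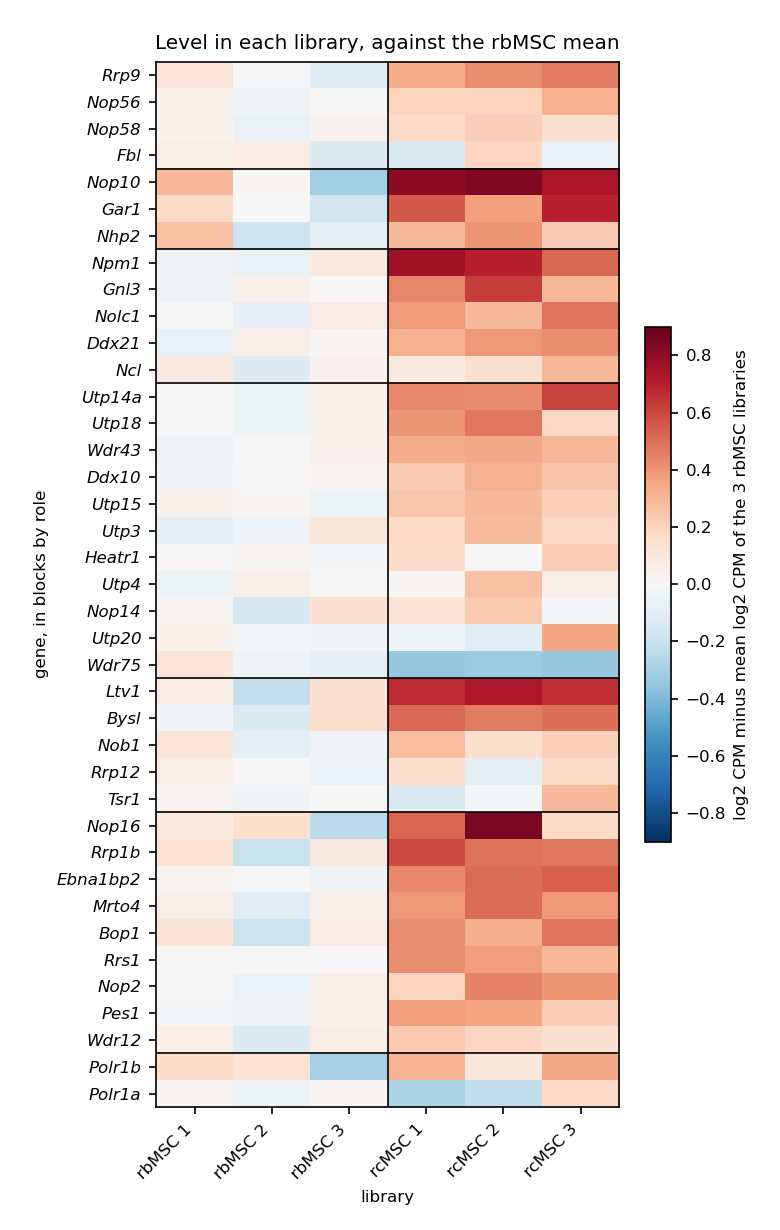
Level of each member in each library, as log2 CPM minus the mean log2 CPM of the 3 rbMSC libraries (colour scale), in blocks by role in the order of the text. Most rows are red in all 3 rcMSC libraries; Wdr75 is blue in all 3, and Polr1a, Tsr1 and Utp20 are red only in rcMSC replicate 3.

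The 11 SSU processome members split: 6 were higher, 1 was lower and 4 did not pass, and 7 were higher without rcMSC replicate 3. With all 6 libraries, 22.6% of all genes tested were higher and 23.2% lower. Utp14a, which in yeast activates a helicase of the particle, had 18.5 ± 0.531 CPM in rbMSC and 25.9 ± 1.86 CPM in rcMSC, the highest log2 fold change of the block at 0.49 (SE 0.08). Wdr43, at 70.1, 72.6 and 74.4 CPM in rbMSC and 91.1, 91.8 and 88.8 CPM in rcMSC, was higher by 0.32 (SE 0.06). Wdr75 (ENSRNOG00000003825, chromosome 9, 47903200 to 47933399) was the 1 member that was lower, at 51.9, 47.2 and 45.9 CPM in rbMSC and 38.1, 38.5 and 38.2 CPM in rcMSC. Its 3 rcMSC libraries lay close together and below every rbMSC library, a log2 fold change of -0.34 (SE 0.07). Wdr43, Wdr75, Utp4, Utp15 and Heatr1 belong to 1 subcomplex, UTP-A, which binds the front end of the precursor. Per length, the ratio of Wdr43 to Wdr75 was 1.14, 1.30 and 1.37 in rbMSC and 2.02, 2.01 and 1.96 in rcMSC. Since Wdr75 was the 1 lower member, ratios to it restate the changes given for each gene. The ratio of Utp15 to Wdr75 was 0.257 ± 0.0116 in rbMSC and 0.385 ± 0.00884 in rcMSC. Utp15 was higher by 0.25 (SE 0.07), while Utp4 and Heatr1, at 0.12 and 0.13, did not pass, though Heatr1 passed with the length trend removed, at 0.26. Utp18 and Ddx10 were higher by 0.36 and 0.27. Utp3 was higher by 0.22, a call held in 9 of 17 fits and lost with the length trend removed, at 0.12. Nop14, at 0.11, did not pass, and it passed without rcMSC replicate 3, at 0.17. Utp20, a large scaffold, was at 84.9, 82.5 and 81.7 CPM in rbMSC and 80.7, 77.5 and 106 CPM in rcMSC. The rcMSC replicate 3 library alone was high, and the log2 fold change of 0.08 became -0.07 without it. With the length trend removed it was 0.23 and passed.

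Of the 5 late small-subunit factors, 2 were higher, or 3 without rcMSC replicate 3, beside 22.6% of all genes tested with all 6 libraries. Ltv1 (ENSRNOG00000015217, chromosome 1, 7565669 to 7578563), a factor that leaves the small subunit late in its maturation, was at 32.7, 27.0 and 34.3 CPM in rbMSC and 49.6, 51.6 and 49.2 CPM in rcMSC. The groups lay far apart, with a log2 fold change of 0.68 (SE 0.09). Bysl had 23.5 ± 2.19 CPM in rbMSC and 33.0 ± 0.482 CPM in rcMSC, a log2 fold change of 0.49 (SE 0.08). Tsr1, a GTPase-like late factor, was at 62.2, 60.05 and 61.0 CPM in rbMSC and 56.2, 60.3 and 74.8 CPM in rcMSC. Here too rcMSC replicate 3 was high, and the log2 fold change of 0.06 (SE 0.10) became -0.07 without it. The endonuclease Nob1 and the export factor Rrp12, at 0.21 and 0.08, did not pass. Nob1 passed at 0.21 without rcMSC replicate 3.

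In the large-subunit block all 3 rcMSC libraries lay above all 3 rbMSC libraries in 9 of 9 members, and 8 were higher by the test. Over all genes tested the shares were 28.3% and 22.6%. Nop16 was at 8.94, 9.34 and 7.13 CPM in rbMSC and 12.1, 15.2 and 9.48 CPM in rcMSC, a log2 fold change of 0.54 (SE 0.18). Its rcMSC libraries varied most, and the value ran from 0.36 to 0.69 when 1 library was left out, and past the threshold only without rcMSC replicate 3. With the length trend removed the value was 0.33. Rrp1b, Ebna1bp2 and Mrto4 were higher by 0.52, 0.49 and 0.43, and Rrs1 and the RNA methyltransferase Nop2 by 0.37 and 0.35. Pes1, Bop1 and Wdr12 form the PeBoW complex, which is needed to process the large-subunit RNA. Pes1 (ENSRNOG00000004515, chromosome 14, 78850709 to 78867134) was at 87.3, 86.2 and 90.5 CPM in rbMSC and 114, 112 and 103 CPM in rcMSC, a log2 fold change of 0.32 (SE 0.06). Bop1 was higher by 0.40 (SE 0.11), and Wdr12, at 0.18 (SE 0.09), did not pass. Per length, Pes1 mRNA was 9.24 ± 0.959 times that of Bop1 in rbMSC and 8.70 ± 0.870 times in rcMSC, ratios that overlapped between the groups. It was 5.51 ± 0.330 times that of Wdr12 in rbMSC and 6.03 ± 0.157 times in rcMSC, and these ratios overlapped as well.

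**Figure D4:**
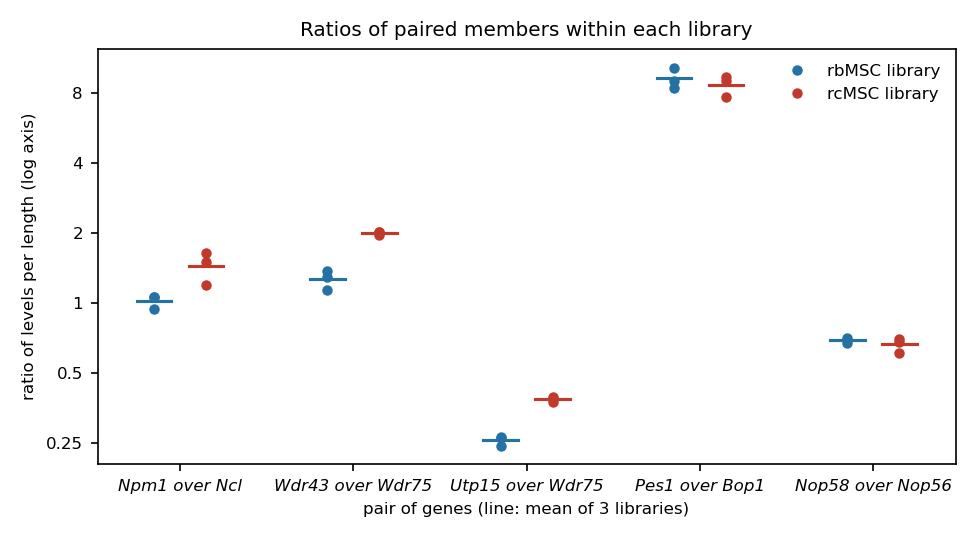
Ratio of the levels per length of paired members within each library (log axis), for 3 rbMSC (blue) and 3 rcMSC (red) libraries, with lines at the group means. Npm1 over Ncl, Wdr43 over Wdr75 and Utp15 over Wdr75 do not overlap between the groups, while Pes1 over Bop1 and Nop58 over Nop56 do. The pairs were chosen after their values were seen, so a gap between the groups restates the changes of the paired genes.

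The RNA polymerase I subunits on the list did not pass the test. Polr1a, the largest subunit, was at 50.4, 48.5 and 50.2 CPM in rbMSC and 40.9, 42.7 and 56.3 CPM in rcMSC. The rcMSC libraries fell on both sides of rbMSC, and the log2 fold change was -0.09 (SE 0.11), or -0.25 and past the threshold without rcMSC replicate 3. Polr1b, the second largest, was at 9.03, 8.78 and 6.57 CPM in rbMSC and 9.98, 8.65 and 10.2 CPM in rcMSC. These overlapped, with a log2 fold change of 0.24 (SE 0.14). Of 14 other genes of this machinery, 5 were higher and 1 was lower in rcMSC (35.7% and 7.14%, beside 22.6% and 23.2% of all genes tested). The shared subunit Polr1d was at 12.5, 13.1 and 13.7 CPM in rbMSC and 20.4, 21.2 and 17.0 CPM in rcMSC (higher by 0.58 on the log2 scale, with an SE of 0.11 and an edgeR adjusted p = 0.00138). Polr1h and Polr1c were higher by 0.59 and 0.48 (edgeR adjusted p = 0.0112 and 0.0114), Polr1h not past the threshold with the length trend removed (adjusted p = 0.0722). Ubtf, which opens ribosomal DNA for transcription, was higher by 0.30 (edgeR adjusted p = 0.00746), and Ttf1, the termination factor, was lower by -0.32 (edgeR adjusted p = 0.00977). Rrn3, which recruits the polymerase, did not pass, at 0.11 (edgeR adjusted p = 0.242), and did so without rcMSC replicate 3, at 0.17.

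The other genes of the pathway, taken from lists written from general knowledge, are given beside the members, together with a list of MYC network genes. These lists too were drawn up with earlier results of these data known. Their calls and p-values therefore describe these libraries, and no inference rests on them. Of 139 tested in these 6 lists, 9 of them MYC network genes, 46 (33.1%) were higher and 6 (4.32%) lower in rcMSC, with a median log2 fold change of 0.15. Over all genes tested, 22.6% were higher and 23.2% lower. The shares higher among other large-subunit factors (27.3%) and snoRNP assembly factors (22.2%) lay near that of all genes. Without rcMSC replicate 3, 62 were higher and 15 lower, where calls over all genes rose to 4512 higher and 4558 lower. With limma voom 12 were lower. Of 39 other small-subunit factors 15 were higher and 0 lower. In 19 of them all 3 rcMSC libraries lay above all 3 rbMSC libraries and in 1 below, where 28.3% and 28.8% of all genes did so. Utp11 and Rrp36 led them, at 0.68 and 0.64 (edgeR adjusted p = 0.00112 and 0.000652). Of 44 other large-subunit factors 12 were higher, led by Nsa2 and Rsl24d1 (0.67 and 0.62, edgeR adjusted p = 0.00221 and 0.000908). The 2 lower ones, Urb2 and Urb1, were at -0.39 and -0.31 (edgeR adjusted p = 0.00307 and 0.0188). Of 24 exosome and RNase MRP genes, which trim and cut the precursor, 9 were higher and 1, Rpp14, was lower. Exosc5 and Exosc6 led, at 0.82 and 0.72 (edgeR adjusted p = 0.0110 and 0.00115). Of 9 snoRNP assembly factors 2 were higher, Shq1 (0.56) and Nufip1 (0.31), and 1 was lower, Rpap3 (-0.24), with edgeR adjusted p = 0.0236, 0.0243 and 0.0226. Those 3 calls were not held in every fit that left out 1 library, and 5 of the 9 were higher without rcMSC replicate 3.

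Of 9 MYC network genes tested, 3 were higher and 1 lower (33.3% and 11.1%, beside 22.6% and 23.2% of all genes tested). Myc, which drives transcription of ribosome biogenesis genes, was at 5.15, 6.32 and 7.80 CPM in rbMSC and 10.3, 9.28 and 10.5 CPM in rcMSC. All rcMSC libraries were higher, by 0.64 on the log2 scale with an SE of 0.15 and an edgeR adjusted p = 0.00686. Its partner Max was higher by 0.53 (edgeR adjusted p = 0.00129), and Mxi1, which competes with MYC for Max, by 0.89 (edgeR adjusted p = 0.000271). Mycl was lower by -0.92 (edgeR adjusted p = 0.0126) at 0.910 to 2.42 CPM, and Mycn (-0.13, edgeR adjusted p = 0.756) did not pass. What these levels have to do with the members was not tested.

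**Figure D5:**
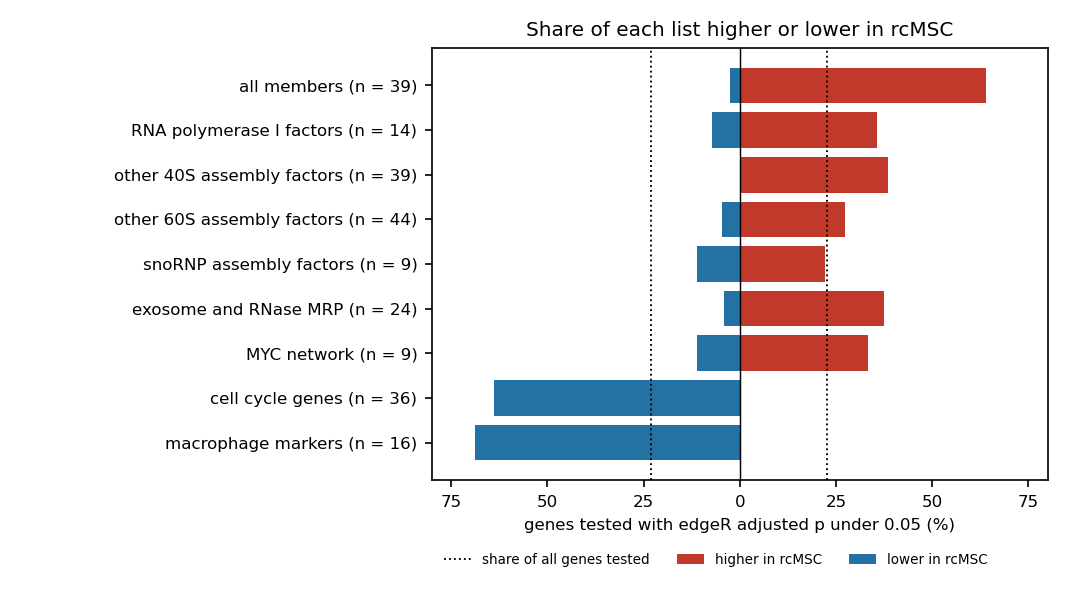
Share of the genes tested in each list that were higher (red, to the right) or lower (blue, to the left) in rcMSC at an edgeR adjusted p of 0.05, with the number tested; dotted lines mark 22.6% and 23.2%, the shares over all genes. Of the members 64.1% were higher and 2.56% lower; of the cell cycle genes 63.9% were lower and 0% higher.

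Cell cycle genes went the other way. Of 36 tested, 23 were lower and 0 higher in rcMSC, with a median log2 fold change of -0.97. Their summed level was 939 to 944 CPM in the rbMSC libraries and 600 to 639 CPM in the rcMSC libraries, which did not overlap. Mki67, a marker of dividing cells, was at 123, 120 and 118 CPM in rbMSC and 44.9, 46.8 and 55.3 CPM in rcMSC (-1.30 on the log2 scale with an SE of 0.08 and an edgeR adjusted p = 6.17e-07). The macrophage marker Ptprc was at 136 ± 4.88 CPM in rbMSC and 45.6 ± 9.49 CPM in rcMSC (-1.57 on the log2 scale, edgeR adjusted p = 1.76e-05). The part of cell division and of macrophages in the members' levels was not tested.

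Gene length moved with the comparison as well. Over all 14836 genes tested, Spearman's rho between log2 fold change and gene length was -0.20, so shorter genes tended to be higher in rcMSC. Over the 39 members, which share these libraries, it was -0.39. The 19 members shorter than the median of 2780 bases had a median log2 fold change of 0.37, and the 20 others 0.25. With the length trend removed, 24 members were higher and 1 lower, with a median of 0.29, and 21 of the 25 first called were among them. The shares of all genes called in that fit are not given here, so these counts lack a baseline. Those of 22.6% higher and 23.2% lower are from the fit without this removal. In rcMSC replicate 3, long members such as Utp20 and Polr1a lay above their group mean and short ones such as Nop16 below it (rho 0.39 between deviation and length, 0.22 over all genes). In rcMSC replicate 2 the same rho was -0.44, and -0.20 over all genes. Within groups the median SD of log2 CPM over 3 libraries was 0.0827 in rcMSC and 0.0750 in rbMSC, against 0.156 and 0.0963 over all genes tested. The members also had more counts, with a median log2 CPM of 4.91 against 3.80, and the SDs were not compared at equal level.

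Exons of 11 members share positions with another gene, 10 of them with a gene on the opposite strand, and the strand setting of the counting is not given. In 7 of these, Bop1, Gnl3, Heatr1, Nhp2, Nob1, Utp18 and Utp4, the neighbour had more counts than the member, and reads of the neighbour may be among the member's. The neighbour of Ebna1bp2 had 8 counts over all 6 libraries, against 2288 for Ebna1bp2. Npm1 may also share reads with near-identical copies elsewhere in the genome, since the counting rule for such reads is not given.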

How the data were processed

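RNA-seq counts of 6 libraries were used, grouped by title. Per the labels' protocols, the authors' paired 150 nt reads went through Trim Galore 0.6.7 and Trimmomatic 0.39, then STAR 2.7.9a on mRatBN7.2, and featureCounts 2.0.1 made the counts. The submitters' processing notes also list DESeq2 1.20.0. The deposited table holds unnormalized counts and, per the file headers, each gene's length. Annotation release, strand setting and multimapper handling: not given in the sources used here.

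The test was edgeR 4.0.16 (R 4.3.3), with TMM scaling, filterByExpr, robust quasi-likelihood and Benjamini-Hochberg adjustment over 14836 genes. Log2 fold changes are rcMSC over rbMSC, and SE is the absolute log2 fold change over the square root of F. CPM are TMM-scaled. Errors are SD over 3 libraries, and since no source calls the libraries separate cultures or animals, p-values cover library spread alone, possibly technical. Totals of 21340290 to 26928079 make 1 count worth 0.0371 to 0.0469 CPM. The scripts were tested on simulated counts.

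Members and lists were chosen with earlier results of these data known. All members are accounted for. In each role the members with the highest and lowest change and the highest level per length, and in each other list up to 2 genes a direction with the largest change, were given by rule, with Myc, Mycn, Ubtf, Rrn3, Polr1c, Polr1d, Mki67 and Ptprc. Other genes, and the pairs in ratios, were chosen after their values were seen. Symbols on more than 1 row (Rsl1d1 and Snu13) were left out. Protein composition, though planned, was not analysed here. Alternatives were other scalings and filters, DESeq2 1.42.0, limma 3.58.1 voom, no robust estimation, a replicate block, removal of the length trend and leaving out each library. Promoters were RefSeq's, on GRCr8, matched by symbol. Their coordinates are not those of the count table's build.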

Additional observations from a re-analysis of the deposited data

How the results depend on the processing

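Over 16 alternatives, 18 members were higher and Wdr75 lower in every fit, the call of 14 members changed in at least 1, and the sign of 4 did. The share of all genes called in every fit is not given here, so these counts lack a baseline. Without 1 library, members higher numbered 20 to 29, members lower 1 to 2, other pathway and MYC network genes higher 32 to 62 and lower 4 to 15, and all genes higher 2542 to 4512 and lower 2794 to 4558. The highest of these counts came without rcMSC replicate 3. The members' median was 0.30 to 0.34. With limma voom 2 members and 12 other genes were lower, and without rcMSC replicate 3, 2 and 15. With the length trend removed the members' median moved to 0.29. The cause of these shifts was not tested. Reversed values were those of members that did not pass: Fbl at -0.0036 with total counts only, -0.18 with the length trend removed and -0.096 to 0.072 without 1 library, Polr1a at 0.015 with the length trend removed, Utp20 and Tsr1 at -0.038 and -0.045 with voom and at -0.069 to 0.17 and -0.069 to 0.15 without 1 library. Mycn ranged from -0.31 to 0.23. Calls of Utp3 and Nop58 were lost in 8 alternatives each and that of Nop16 in 6. Of the 10 highest members per length, 8 were also highest by CPM. In the 250 bases before the start alone, 21.6% of members' promoters held an E-box. With the replicate number as a block, 23 members were higher and 1 lower, and the shares over all genes in that fit are not given here. The numbers did not pair the libraries (correlations of deviations -0.05 to 0.02), and no blocked count moved by over 1.5 times. Depth limits genes such as Nop10, where 77 to 183 counts were found per library.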
